A study of Homo sapiens with 10 samples.

Results

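The 10 genes described here encode the MYC, MAX and MXD network: MYC, its partner MAX, the antagonists MXD1, MXI1, MXD3, MXD4, MNT and MGA, and the parallel pair MLX and MLXIP. They were chosen by name, with earlier results of these data known, out of 31015 genes in the counts. All 10 passed the filter on low counts for T>C reads and for all reads. The 10 libraries came from 22RV1, an established cell line of castration-resistant prostate cancer, in 5 groups of 2. Control cells were untreated. The others had 4 h of SRPIN340 (20 μM), of Endovion, also called SCO-101 (50 μM), of THZ531, or of THZ531 and Endovion together, the combination. The methods give 100 nM THZ531 and the description of the series 150 nM. SRPIN340 and Endovion inhibit the splicing kinase SRPK1, and THZ531 inhibits the elongation kinase CDK12. 4-Thiouridine was added for the last 10 min. After alkylation the sequencer reads it as C. A read with a T>C conversion (a T>C read) was therefore taken to mark newly made RNA, called nascent RNA here, and all reads together give total RNA. All 5 groups carried the label, and no library without it was analysed here. T>C reads from sequencing errors or from differences from the reference could therefore not be told apart from label. Nothing in the labels says that the replicates were separate cultures, so p-values measure the spread between these libraries, which may be technical. In bulk RNA, fewer cells with a transcript and less of it per cell cannot be told apart.

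MYC is a short-lived transcription factor that binds the E-box, CACGTG, as a dimer with MAX and raises transcription of genes for growth and proliferation. The MXD proteins, MXI1 (also called MXD2) and MNT also bind the E-box with MAX, but recruit the SIN3 corepressor and its histone deacetylases. MGA joins MAX in a Polycomb complex, PRC1.6. MLX takes the place of MAX in a parallel branch with the glucose sensors MLXIP (MondoA) and MLXIPL, and can also pair with MXD1, MXD4 and MNT. MYC is amplified or highly expressed in many prostate cancers.

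Since the E-box is the sequence that dimers of this network bind, its matches in the members' own promoters are shown. Windows from 250 bases before to 50 after an annotated start were in the RefSeq promoter table (GRCh38.p14) for 9 members, all but MYC, several of which have more than 1 start. CACGTG, which reads the same on both strands, was found for 3 of these 9 genes, in 1 window each. Over all 35116 promoter windows, 7.26% held it. That share counts windows and not genes, and several members have more than 1 window. The count of 3 of 9 genes is therefore not comparable with it, and an excess was not tested. The capitals mark the motif, and each sequence is read along the gene's strand.
MNT, start of the motif 193 bases before the start site, minus strand of chr17:2401238-2401263: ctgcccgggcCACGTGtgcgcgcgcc
MXD4, 238 bases before, minus strand of chr4:2262332-2262357: gccgggccacCACGTGctgttgctaa
MLX, 50 bases before, plus strand of chr17:42567040-42567065: gggcgcgggtCACGTGggcacgccac
A match is a string of letters and not a bound site. Of these 3 genes, MNT had a called change and MXD4 and MLX had none, as described below.

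The libraries held 19315560 to 30047897 reads on genes, of which 1011598 to 1576121 were T>C reads, a share of 5.04% to 5.70%. Luminal epithelial markers were present in all libraries (KRT18, 348 to 472 CPM, that is, reads scaled to a common library size; EPCAM, 102 to 165; KRT8, 86.8 to 141), although KLK3, a marker of the prostate, was at 2.63 to 8.09 CPM and TMPRSS2 at 1.03 to 2.79. The 10 markers of other cell types summed to 2.17 to 2.40 CPM in the control and 3.19 to 4.82 with the combination, COL1A1 alone being at 1.57 to 3.51 over the libraries, with CD3E, VWF and KRT5 at 0 in every library. The part of these shifts in the results was not tested. CPM values below are scaled by TMM, for T>C reads to all T>C reads and for total RNA to all reads. "Called" means an adjusted p under 0.05 with edgeR's quasi-likelihood test over all genes tested.

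MYC was called in nascent RNA in 3 of the 4 comparisons with control, more than any other member. Its T>C level was 85.0 and 66.6 CPM in the 2 control libraries, 141 and 131 with SRPIN340, 117 and 141 with Endovion, 187 and 255 with THZ531, and 111 and 169 with THZ531 and Endovion. Every treated library was above both controls, and the THZ531 pair was above all the others. Nascent MYC rose with THZ531 (log2 fold change 1.53 ± 0.22 SE, n = 2 libraries per group, edgeR adjusted p = 2.8e-06), with THZ531 and Endovion (0.87 ± 0.23, adjusted p = 0.0087) and with SRPIN340 (0.84 ± 0.23, adjusted p = 0.046), and was 0.76 ± 0.23 with Endovion (adjusted p = 0.056). Total MYC RNA was 39.7 and 22.3 CPM in the control and 72.6 to 146 CPM in the 8 treated libraries, so the 2 controls differed more from each other than the Endovion pair did (81.0 and 86.3 CPM). Total MYC was called with THZ531 (1.91 ± 0.40, adjusted p = 0.015) and with the combination (1.601 ± 0.40, adjusted p = 0.029). The values with SRPIN340 (1.44 ± 0.40, adjusted p = 0.13) and Endovion (1.43 ± 0.40, adjusted p = 0.074) did not pass with edgeR, and both passed with DESeq2 (adjusted p = 0.015 and 0.0084). The nascent call with THZ531 held in every alternative run. The other calls did not: without control replicate 2, the adjusted p of MYC was 0.46 for SRPIN340 and 0.13 for the combination in nascent RNA, and 0.078 for THZ531 and 0.14 for the combination in total RNA. The nascent SRPIN340 call was also lost without SRPIN340 replicate 1 or 2 or Endovion replicate 1 (adjusted p = 0.24, 0.20 and 0.054) and with DESeq2 (0.099). The combination's calls were also lost without its replicate 2 (nascent 0.28, total 0.12), the total one also without Endovion replicate 1 or 2 (0.059 and 0.060), and the total THZ531 call without THZ531 replicate 2 (0.071). The Endovion value was past the threshold without control replicate 1 (0.039 in nascent and 0.047 in total RNA) and, in nascent RNA, without replicate 1 of the combination (0.049).

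**Figure D1:**
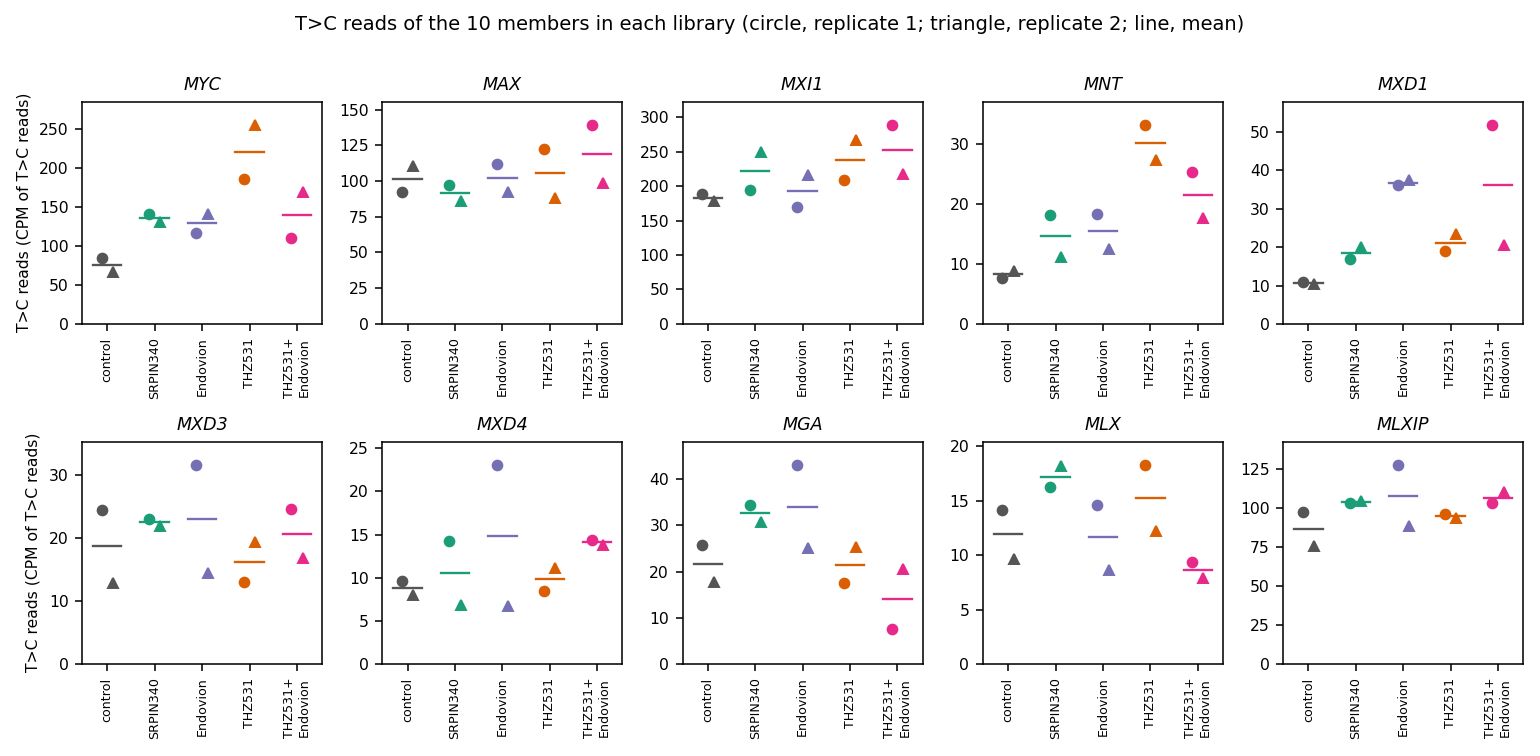
T>C reads of each member in each library, in CPM of T>C reads on a linear axis from 0, by group. Points are libraries and lines are the means of 2. MYC was at 66.6 and 85.0 CPM in the control and at 187 and 255 with THZ531, while MXD1 was highest with Endovion and in 1 of the 2 libraries of the combination, and MAX was at 86.4 to 139 CPM over all libraries.

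In nascent RNA, 2 of 10 were called with THZ531 (MYC and MNT), where 7.46% of the 9946 genes tested were called, 2 with THZ531 and Endovion (MYC and MXD1, against 8.10% of genes), 1 with SRPIN340 (MYC, 1.04%) and 1 with Endovion (MXD1, 2.66%), all of them higher. In total RNA, 6 of 10 were called with THZ531 (MYC, MXD1, MXI1 and MAX higher, MLXIP and MXD3 lower), against 30.7% of 14690 genes (16.6% higher and 14.1% lower), 4 with the combination (MYC, MXD1, MXI1 and MNT higher, 28.98%), and MXD1 alone with SRPIN340 (1.96%) and with Endovion (11.4%). The median nascent log2 change of the 10 members was 0.25 with THZ531 and 0.49 with Endovion, with medians over all genes of -0.02 and -0.01. Where the change was not called, the 95% intervals were wide for the low members. MXD4 with Endovion, for example, was at 0.77 with an interval from -0.94 to 2.47. All 95% intervals given here use only the residual degrees of freedom. The test also borrows information across genes, so the intervals are wider than its p-values imply.

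**Figure D2:**
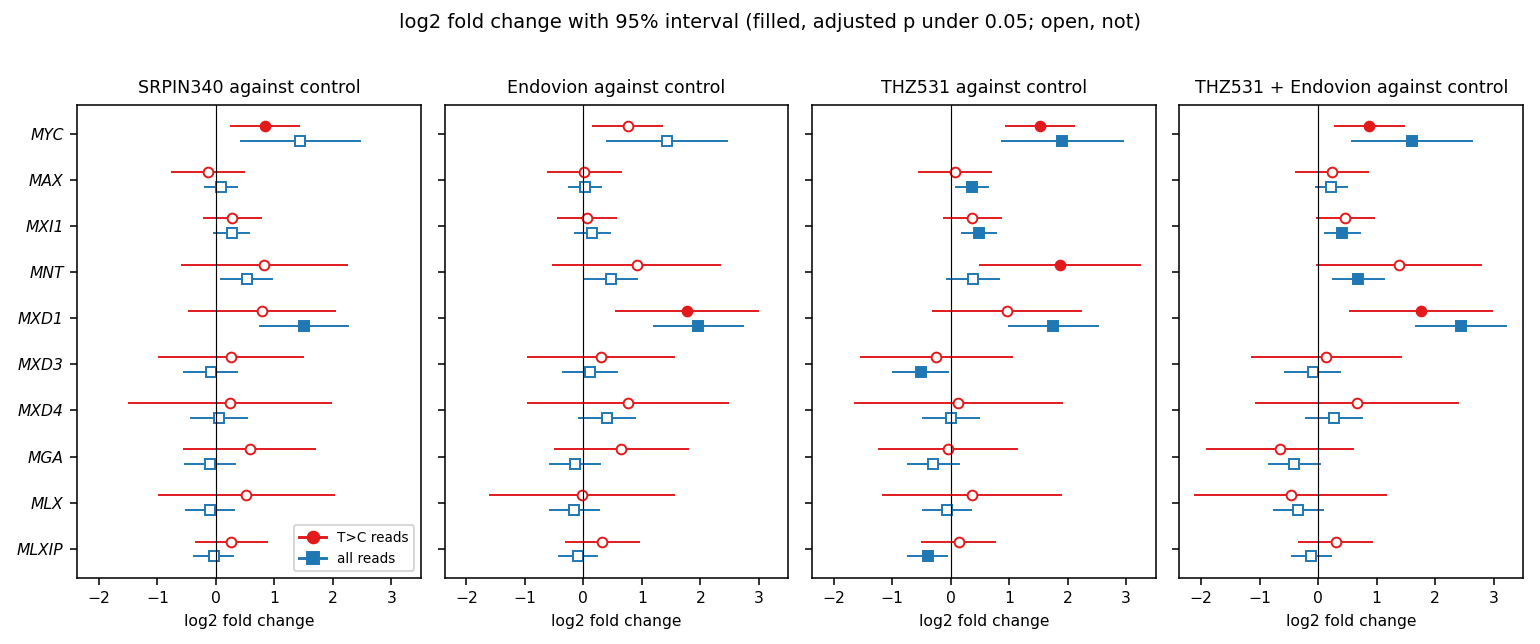
Log2 fold change against the untreated control of the 10 members in T>C reads (circles) and all reads (squares), 1 panel per treatment, with bars for 95% intervals from the standard error and 5 residual degrees of freedom. Filled symbols have an adjusted p under 0.05. MXD1 is filled in total RNA in all 4 panels, from 1.51 with SRPIN340 to 2.45 with THZ531 and Endovion, and MAX is filled only in total RNA with THZ531.

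MXD1 (MAD1), the antagonist that names the family and is linked to differentiation, is encoded at chr2:69897688-69942945 in hg38. It rose in total RNA with every treatment. It was a low transcript in the control, at 5.60 and 3.11 CPM (157 and 74 reads), and reached 11.1 and 13.8 CPM with SRPIN340, 15.5 and 18.8 with Endovion, 12.02 and 17.7 with THZ531, and 28.5 and 19.3 with THZ531 and Endovion. All 8 treated libraries were above both controls. The log2 changes were 1.51 ± 0.29 with SRPIN340 (adjusted p = 0.030), 1.97 ± 0.30 with Endovion (0.0027), 1.76 ± 0.30 with THZ531 (0.00097) and 2.45 ± 0.30 with the combination (0.00013). The last 3 were called in all 17 alternatives run, with ranges of 1.57 to 2.46, 1.36 to 2.25 and 2.05 to 2.94. The SRPIN340 call was lost without control replicate 2 (adjusted p = 0.28), SRPIN340 replicate 2 (0.24) or either Endovion library (0.058 and 0.056). Nascent MXD1 was 10.9 and 10.4 CPM in the control (17 and 13 T>C reads), 16.9 and 20.0 with SRPIN340, 36.1 and 37.5 with Endovion, 18.9 and 23.4 with THZ531, and 51.7 and 20.7 with the combination. It rose with Endovion (1.77 ± 0.47, adjusted p = 0.021) and with the combination (1.76 ± 0.47, adjusted p = 0.011), and was 0.96 ± 0.49 with THZ531 (adjusted p = 0.25) and 0.78 ± 0.48 with SRPIN340 (adjusted p = 0.61). The combination rested on its replicate 1: without it, the value was 0.94 (adjusted p = 0.47), and it was also lost without control replicate 2 (0.075). The Endovion call was lost without any of the 4 libraries compared, at adjusted p of 0.075 to 0.16 while the log2 change stayed between 1.74 and 1.81.

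**Figure D3:**
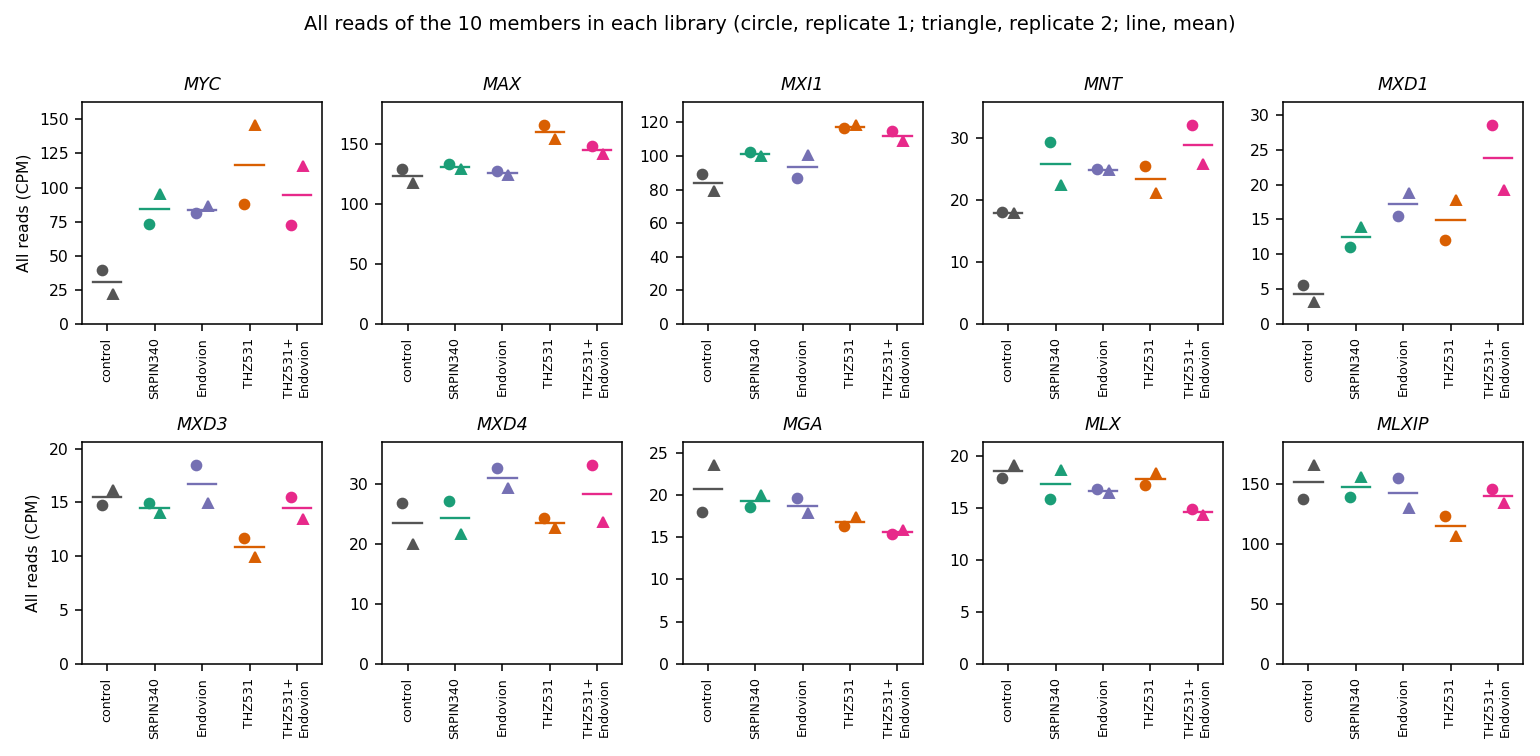
All reads of each member in each library, in TMM-scaled CPM on a linear axis from 0, by group. Points are libraries and lines are the means of 2. MXD1 was at 3.11 and 5.60 CPM in the control and at 11.1 to 28.5 CPM in the 8 treated libraries, and MLXIP with THZ531 (123 and 107 CPM) was below both controls (138 and 165 CPM).

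MNT (chr17:2384073-2401104) is an antagonist that most cells express whether or not they divide. Its T>C level was 7.72 and 8.83 CPM in the control (12 and 11 T>C reads), 33.2 and 27.5 with THZ531 (51 and 27 T>C reads), 25.4 and 17.7 with THZ531 and Endovion, 18.3 and 11.3 with SRPIN340, and 18.4 and 12.5 with Endovion. All treated libraries were above the controls, the THZ531 pair most. Nascent MNT rose with THZ531 (1.87 ± 0.53, adjusted p = 0.018), and was 1.38 ± 0.55 with the combination (adjusted p = 0.11). Total MNT was 18.003 and 17.9 CPM in the control, 25.4 and 21.2 with THZ531 (0.38 ± 0.17, adjusted p = 0.11), 29.3 and 22.4 with SRPIN340, 24.9 and 24.8 with Endovion, and 32.02 and 25.8 with the combination, where it rose (0.69 ± 0.17, adjusted p = 0.0073). Again all treated libraries were above the controls. The nascent call was lost without any 1 of the 4 libraries compared (adjusted p = 0.066 to 0.12, log2 change 1.72 to 1.997). The total call with the combination was lost without its replicate 1 (0.13) or control replicate 2 (0.054).

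MXI1 (chr10:110207605-110287365), an antagonist that recruits SIN3 as MXD1 does, was called in total RNA with THZ531 and with the combination. Its level was 88.98 and 79.04 CPM in the control, 117 and 118 with THZ531, 115 and 109 with THZ531 and Endovion, 102 and 100.3 with SRPIN340, and 86.7 and 100.5 with Endovion. The THZ531 and combination libraries lay above the other 6. Total MXI1 rose with THZ531 (0.48 ± 0.12, adjusted p = 0.0054) and with the combination (0.41 ± 0.12, adjusted p = 0.014), calls that were lost without control replicate 2 (adjusted p = 0.072 and 0.16), THZ531 replicate 2 (0.056) and replicate 1 of the combination (0.15). Nascent MXI1 was 189 and 178 CPM in the control and 170 to 288 elsewhere, with no call (THZ531 0.37 ± 0.19, adjusted p = 0.25). Most of its T>C reads came from a single stretch of its 3′ UTR, chr10:110285093-110286506, where 26.3% of the 1763 control reads were T>C reads, against 0.830% of 723 reads just before it and 2.38% of 1889 reads in the remaining 859 bases. Whether differences from the reference genome were masked when conversions were counted is not given in the sources used here.

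MXD3 (chr5:177301461-177312757) and MXD4 (chr4:2247432-2262109), the MXD proteins linked to the cell cycle and to quiescence, were measured from few T>C reads, 15 to 41 and 7 to 30 per library. Total MXD3 was 14.8 and 16.2 CPM in the control and 11.7 and 9.92 with THZ531, the lowest pair of the 5 groups, and fell by 0.51 ± 0.18 on the log2 scale (adjusted p = 0.044). That call was near the threshold and was lost without any 1 of 7 libraries: either control (0.061 and 0.14), THZ531 replicate 2 (0.19), either Endovion (0.055 and 0.054) or either SRPIN340 library (0.066 and 0.065). Total MXD4 was 26.8 and 20.1 CPM in the control and 21.6 to 33.1 in treated cells, with no call in either measure.

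MAX (chr14:65006174-65102695), the partner that MYC, the MXD proteins, MNT and MGA share, had no nascent call. Its T>C level was 92.0 and 111 CPM in the control and 86.4 to 139 in treated cells, and the log2 changes ran from -0.14 with SRPIN340 to 0.23 with the combination (95% interval with THZ531, -0.55 to 0.69). Total MAX was 129 and 117 CPM in the control, 165 and 153 with THZ531, 148 and 141 with the combination, 133 and 129 with SRPIN340, and 128 and 124 with Endovion. It rose with THZ531 (0.37 ± 0.11, adjusted p = 0.015), a call lost without control replicate 2 (0.15) or either THZ531 library (0.14 and 0.069). MLXIP (chr12:122078756-122147344), the glucose sensor that pairs with MLX, was 138 and 165 CPM in the control and 123 and 107 with THZ531, and fell by 0.40 ± 0.13 on the log2 scale (adjusted p = 0.029). The fall was not called without control replicate 2 (0.16) or THZ531 replicate 2 (0.15). MLX itself (chr17:42567072-42573239) was at 17.9 and 19.1 CPM in the control and 14.3 to 18.6 in treated cells, and MGA (chr15:41621134-41773081) at 17.97 and 23.5 CPM and at 15.3 to 19.9, with no call for either in nascent or total RNA. MGA with the combination was at -0.41 ± 0.17 (adjusted p = 0.080), and at -0.59 without control replicate 1 (adjusted p = 0.026).

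The balance of partners and antagonists to MYC was also read as ratios of reads within a library, which need no scaling. These are 3′ end reads not corrected for length, so only their change between libraries was read. MAX had 3.26 and 5.27 reads per MYC read in the control and 1.05 to 2.04 in the 8 treated libraries. The 6 antagonists together had 4.34 and 7.18 reads per MYC read in the control, 2.78 and 2.01 with SRPIN340, 2.44 and 2.39 with Endovion, 2.36 and 1.42 with THZ531, and 3.30 and 1.78 with THZ531 and Endovion. MXD1 ran otherwise. Its reads per 100 MYC reads were 14.1 and 13.99 in the control, 15.1 and 14.5 with SRPIN340, 13.7 and 12.2 with THZ531, 19.2 and 21.8 with Endovion, and 39.3 and 16.6 with the combination. The ratio of MXD1 to MYC was nearly equal in the control replicates, whose MYC levels differed, and was above all control, SRPIN340 and THZ531 values in the 4 libraries that held Endovion. In T>C reads it was 12.9 and 15.7 in the control, 30.7 and 26.5 with Endovion, and 46.6 and 12.2 with the combination, whose replicate 2 was below both controls. For the 6 antagonists together, T>C reads per MYC T>C read were 3.14 and 3.54 in the control and 1.47 to 2.75 in 7 of the treated libraries, and 3.71 in replicate 1 of the combination. Both sums rest largely on MXI1, with 2496 of 4830 and 1879 of 3797 antagonist reads in the control. It had 293 and 222 T>C reads there, mostly from the single stretch described above, and no other antagonist had over 40. These ratios are descriptions and were not tested.

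The share of a gene's reads that were T>C reads sets nascent against total RNA in the same library. In the control, MYC was at 13.1%, MXD1 at 12.99% and MXI1 at 11.8%, against a median of 5.26% over 8683 genes with enough T>C reads. The MXI1 value rests on the single stretch described above, at 26.3%, with 0.830% and 2.38% in the stretches beside it. MXD3 was at 6.76%, MGA at 5.84%, MAX at 4.38%, MLX at 3.56%, MLXIP at 3.14%, MNT at 2.47% and MXD4 at 2.03%. Shares of the control replicates differed, as for MYC (11.9% and 15.7%) and MXD1 (10.8% and 17.6%), so neighbours in this order are not separated by their spread. The share also depends on how many Ts the reads of a gene cover. By conversions per covered T, MYC, MXD1 and MXI1 stayed highest (1.24%, 0.571% and 0.544%). MAX (0.134%) was then below MLX (0.153%) and MLXIP (0.206%), with a median over genes of 0.235%. In MYC the share was 6.94% to 12.1% in treated cells, in MXD1 5.71% to 11.6%, and in MNT 2.38% and 2.59% in the control and 7.40% and 6.84% with THZ531. The test asked whether a treatment moved T>C reads and the other reads of a gene unequally, relative to all genes. No member was called, against 0.191% (SRPIN340), 0.292% (Endovion), 0.312% (THZ531) and 1.06% (combination) of 9943 genes. At an unadjusted p under 0.05 there were 2 members in each of the 4 comparisons (MYC and MLXIP, or MNT and MLXIP with THZ531), where 8.58%, 9.56%, 10.2% and 12.4% of genes were, and DESeq2 called 0 among those it gave an adjusted p, 4 at most in any of these comparisons. Among the members at an unadjusted p under 0.05, the smallest adjusted p were those of MNT with THZ531 (1.70 ± 0.48, adjusted p = 0.13) and MYC with the combination (-0.68 ± 0.23, adjusted p = 0.16). Without control replicate 1, MLXIP was called higher with Endovion (0.95, adjusted p = 0.045), THZ531 (1.04, 0.026) and the combination (0.96, 0.033).

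MYC reads carried more conversions each than those of almost any other gene. Control MYC had 3.25 conversions per T>C read, above 99.6% of the 8683 genes, whose median was 1.04. By library, it had 2.97 and 3.69 in the control, 2.76 and 2.42 with SRPIN340, 2.79 and 2.20 with Endovion, 2.85 and 2.34 with THZ531, and 2.33 and 1.98 with the combination, and every treated library lay below both controls. Pooled over both controls, the other 9 members had at most 1.56. Conversions were counted inside the interval and T>C reads as whole reads, so a value can fall below 1, as for MLX in control replicate 2 (0.917).

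**Figure D4:**
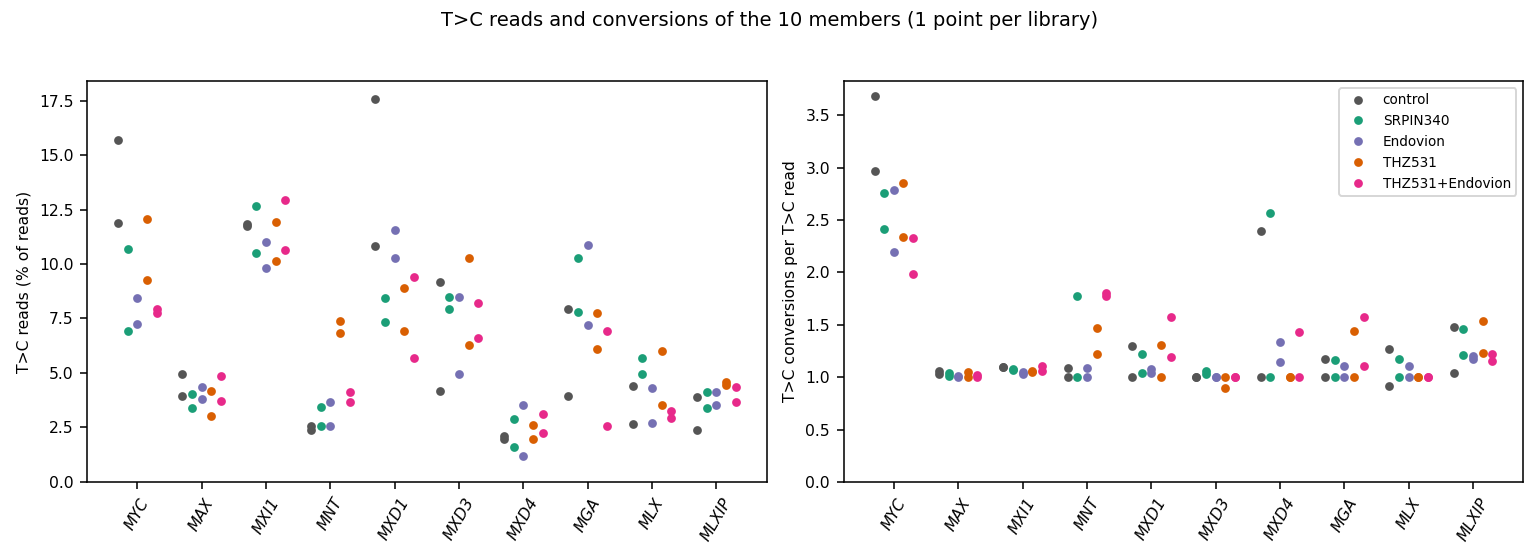
Left, T>C reads as a percentage of all reads of each member; right, T>C conversions per T>C read. Each point is a library, coloured by group, and both axes are linear from 0. MYC stands at 1.98 to 3.69 conversions per T>C read in all 10 libraries.

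Where a member had 2 nested 3′ UTR intervals with ends at least 200 bases apart, reads before the proximal end were set against those between the proximal and the distal end. This could be done for MAX, MGA, MXI1, MLXIP and MXD3, among 1910 genes tested. The last letters before each end of MAX and MGA in hg38 are shown because these 2 genes shifted. The capitals mark the poly(A) signal AATAAA or ATTAAA, which was searched on the gene's strand in the last 50 bases and occurs there in 31.1% and 9.86% of 82070 annotated ends.
MGA proximal end, plus strand, chr15:41769912-41769941: gaAATAAAgcagttaaaacaATTAAAgcag
MGA distal end, plus strand, chr15:41773039-41773068: ccagacttgggaAATAAAtttgaaaatcgt
MAX distal end, minus strand, chr14:65075131-65075160: tataagactataAATAAAaacttattttat
Neither hexamer lies in the last 50 bases before the proximal end of MAX, at position 65075544.

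MAX reads moved to the distal 420 bases in every treatment. The distal share was 40.8% and 27.3% in the control, 47.6% and 52.9% with SRPIN340, 54.4% and 50.5% with Endovion, 48.8% and 54.8% with THZ531, and 55.4% and 55.6% with the combination. All 8 treated libraries were above both controls, which were themselves far apart. The log2 shift of distal against proximal reads was 0.99 ± 0.24 with SRPIN340 (adjusted p = 0.040), 1.11 ± 0.24 with Endovion (0.0085), 1.07 ± 0.24 with THZ531 (0.0051) and 1.29 ± 0.24 with the combination (0.0019), where 3.25%, 12.9%, 19.4% and 20.9% of genes tested were called in either direction. Without control replicate 2, the shift was 0.55, 0.68, 0.64 and 0.86, and only the combination was still called; adjusted p was 0.43, 0.12 and 0.081 for the others. The call with Endovion was also lost without Endovion replicate 1 (0.12), that with THZ531 without THZ531 replicate 2 (0.077), and that with SRPIN340 without any of its own, the Endovion or the combination libraries (0.066 to 0.34).

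MGA moved the other way, and with THZ531. Reads in its distal 3140 bases made up 46.0% and 53.6% in the control, 50.1% and 47.5% with SRPIN340, 51.0% and 51.7% with Endovion, 31.1% and 19.8% with THZ531, and 36.0% and 28.1% with THZ531 and Endovion. The 4 libraries with THZ531 were below the other 6. The shift was -1.54 ± 0.33 with THZ531 (adjusted p = 0.0043) and -1.08 ± 0.33 with the combination (adjusted p = 0.030), and -0.06 ± 0.32 with SRPIN340 and 0.09 ± 0.33 with Endovion (adjusted p = 0.95 and 0.90). Between the combination and Endovion the difference was -1.16 ± 0.34 (adjusted p = 0.089). Among all genes tested with THZ531, 14.1% were called lower and 5.29% higher. Proximal MGA reads were 306 and 259 with THZ531 and 272 and 259 in the control, while distal reads were 138 and 64 against 232 and 299. Without control replicate 2 the shifts were -1.32 (adjusted p = 0.052) and -0.86 (0.21). Without THZ531 replicate 2 the THZ531 value was -1.14 (0.075), and without replicate 1 or 2 of the combination its value was -1.35 (0.050) and -0.82 (0.20). MXI1, MLXIP and MXD3 had no call. MXI1 with the combination was at -0.50 ± 0.20 (adjusted p = 0.090), and at -0.71 without control replicate 1 (adjusted p = 0.032).

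**Figure D5:**
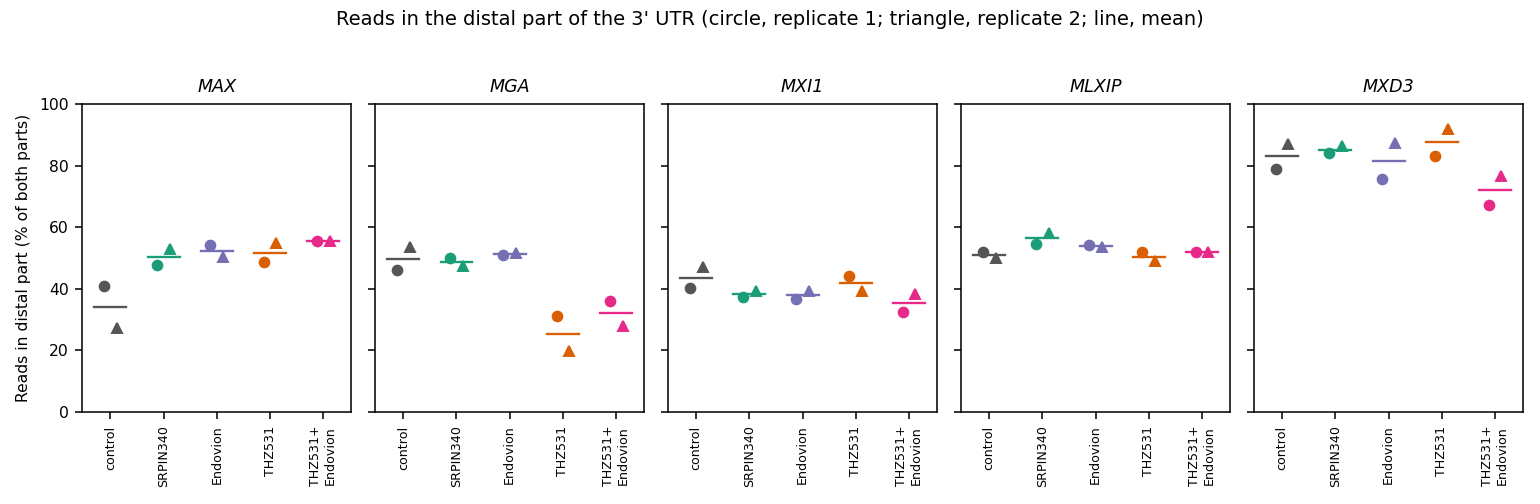
Share of reads in the distal part of the 3′ UTR, in percent of proximal and distal reads, for the 5 members with 2 separate ends. Points are libraries and lines are the means of 2. MAX lies above its controls in all treated libraries, and MGA is at 19.8% to 36.0% in the 4 libraries with THZ531 and at 46.0% to 53.6% in the other 6.

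Comparing the treatments directly, no member was called between Endovion and SRPIN340, in nascent RNA (0.0603% of genes called) or in total RNA (0.0340%). At an unadjusted p under 0.05 stood 1 member in nascent RNA, MXD1 (3.90% of genes), and 0 in total RNA (3.68%), and DESeq2 called 0. Nascent MXD1 was 0.99 higher on the log2 scale with Endovion than with SRPIN340, with an interval from -0.14 to 2.12. That interval spans 0 despite the unadjusted p, because it uses fewer degrees of freedom than the test. For nascent MYC the difference was -0.08, with an interval from -0.64 to 0.49. The doses were 50 μM and 20 μM, and the compounds differ in structure.

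Adding Endovion to THZ531 gave no call against THZ531 alone (0.322% of genes in nascent and 0.511% in total RNA), with 1 member at an unadjusted p under 0.05 in nascent RNA (MYC; 7.81% of genes) and 3 in total RNA (MXD1, MLXIP and MXD3; 11.03%), and 0 by DESeq2. Nascent MYC was -0.66 ± 0.22 (95% interval -1.22 to -0.10, adjusted p = 0.28). Against Endovion alone the combination gave no call either (1.31% and 8.22% of genes), with 2 members at an unadjusted p under 0.05 in nascent RNA (MGA and MXI1; 10.9% of genes), 1 in total RNA (MXI1; 21.1%) and 0 by DESeq2. The interaction of THZ531 with Endovion, which asks whether the effects add up on the log2 scale, was called for nascent MYC (-1.42 ± 0.32, adjusted p = 0.025; 0.302% of genes). It was lost without either Endovion library (adjusted p = 0.064 and 0.15), control replicate 2 (0.24), replicate 1 of the combination (0.26) or THZ531 replicate 2 (0.34). For nascent MNT and MXD1 it was -1.40 ± 0.74 and -0.97 ± 0.65 (adjusted p = 0.68 and 0.78). In total RNA no member was called by edgeR or DESeq2 (0.00681% of genes), and 2 were at an unadjusted p under 0.05 (12.97% of genes), MYC at -1.74 ± 0.55 (adjusted p = 0.31) and MXD1 at -1.28 ± 0.40 (adjusted p = 0.27, 0.018 without control replicate 1, and 0.0018 without the filter on low counts).

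Of the other genes of the network, MYCN had at most 15 reads and MYCL at most 41 in any library, and MLXIPL 118 to 404. In total RNA 1 of these 3 was called, MLXIPL, which fell with the combination (-0.78 ± 0.26, adjusted p = 0.038), where 28.98% of all genes were called. It was at -0.69 ± 0.26 with THZ531 (adjusted p = 0.058). Of the 16 genes of the SIN3 corepressor that the MXD proteins recruit, 15 were tested in nascent RNA. Of these 1 was called, RBBP7, with the combination (0.60 ± 0.17, adjusted p = 0.019), where 8.10% of all genes were called. In total RNA 7 of 16 were higher and 1 lower with THZ531, with a list median of 0.35 against -0.01 over all genes, of which 16.6% were called higher and 14.1% lower. The same shares over all genes apply to the total RNA counts with THZ531 of the lists that follow. Of the 12 genes tested of PRC1.6, the Polycomb complex that holds MGA, edgeR and DESeq2 called 0 in nascent RNA in the 4 comparisons with control (0 to 2 at an unadjusted p under 0.05), and in total RNA 5 were higher and 1 lower with THZ531. The lists share genes: HDAC1 and HDAC2 are listed for both SIN3 and PRC1.6, and WDR5 for PRC1.6 and the MYC coactivators. Among 18 MYC coactivator genes, only EP400, a chromatin remodeller, was called in nascent RNA (-0.98 ± 0.27 with the combination, adjusted p = 0.015, against 8.10% of all genes). Of 21 genes for MYC protein turnover edgeR and DESeq2 called 0 in nascent RNA (1 to 4 at an unadjusted p under 0.05), and in total RNA 4 were higher and 2 lower with THZ531. Of 9 MYC mRNA regulators, IGF2BP2, which binds and stabilizes mRNAs, was called with THZ531, where 7.46% of all genes were called. It rose from 4 T>C reads in each control to 22 and 18 (2.46 ± 0.75, adjusted p = 0.031). Nascent IGF2BP2 was also at 1.91 with SRPIN340, 2.19 with Endovion and 1.89 with the combination (adjusted p = 0.29, 0.12 and 0.13). Total IGF2BP2 with THZ531 was at 0.33 ± 0.16 (adjusted p = 0.13).

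Of the 22 MYC-activated targets tested in nascent RNA, 2 were called higher and none lower with THZ531 (7.46% of all genes were called in either direction), 2 and 1 with Endovion (2.66%), 1 and 1 with SRPIN340 (1.04%), and none and 1 with the combination (8.10%), and the list medians lay between -0.08 and 0.05. APEX1, a DNA repair endonuclease, rose with SRPIN340, Endovion and THZ531 (1.46, 1.45 and 1.23, adjusted p = 0.032, 0.021 and 0.036), and RCC1, the exchange factor for RAN, with Endovion and THZ531 (1.34 and 0.97, adjusted p = 0.0010 and 0.019). The control replicates of both were apart in total RNA, 610 and 231 reads for APEX1 and 1704 and 839 for RCC1, as they were for MYC and MXD1. Nascent NOP16, for a nucleolar protein of ribosome assembly, fell with SRPIN340 (-0.61 ± 0.15, adjusted p = 0.023), Endovion (-0.77 ± 0.15, 0.00069) and the combination (-0.80 ± 0.15, 0.00020), and with THZ531 was at 0.01 ± 0.15. Total NOP16 rose with THZ531 (0.48 ± 0.12, edgeR adjusted p = 0.0083). It was not called in total RNA with SRPIN340, Endovion or the combination (edgeR adjusted p = 0.88, 0.19 and 0.40). Of 4 MYC-repressed targets, GADD45A, a growth arrest gene, rose with THZ531 (1.32 ± 0.38, adjusted p = 0.023) and with the combination (1.29 ± 0.39, adjusted p = 0.025), calls that DESeq2 did not make. Over all genes, 7.46% and 8.10% were called in these 2 comparisons. For the 2 targets of MLXIP and MLX, edgeR and DESeq2 made 0 nascent calls (0 to 2 at an unadjusted p under 0.05). In total RNA 1 of them, ARRDC4, rose with THZ531 (1.68 ± 0.32, adjusted p = 0.0017) and with the combination, both against control (1.76 ± 0.32, adjusted p = 0.0013) and against Endovion (1.15 ± 0.32, adjusted p = 0.036). Over all genes, 30.7%, 28.98% and 8.22% were called in these comparisons. The other target, TXNIP, was at 0.22 ± 0.19 with THZ531 and 0.39 ± 0.19 with the combination against control (edgeR adjusted p = 0.42 and 0.15). MLXIPL and ARRDC4 are named because their lists held 1 call each, and were chosen after their values were seen.

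Among 4092 genes with a mean of at least 50 T>C reads, the nascent levels most like those of MYC over the 10 libraries were LMNB1 (Pearson r = 0.94), CMC2 (0.93) and RPN1 (0.92). Those most like MXD1 were ZNF664 (0.95), HNRNPL (0.93) and WNK1 (0.93), and those most like MNT were PGGT1B (0.94), ARF1 (0.93) and ILF2 (0.93). The points share their libraries, depth and group differences, and the values are descriptions.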

How the data were processed

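The authors labelled RNA, prepared QuantSeq 3′ end libraries and counted conversions with SLAM-DUNK, whose version, masking of differences from the reference and conversions required per read are not given in the sources used here. The counts used are read counts and T>C read counts per 3′ UTR interval, which the authors deposited without normalization. Molecular identifiers were in the libraries, but the sources used here do not say whether duplicates were removed with them. The submitters' processing notes name hg38, Bowtie2 2.3.4.1, SAMtools 1.6 and DESeq2 1.38.2. T content of 34 of 34 member intervals and of 5000 of 5000 random intervals equalled that in hg38. Cells given SRPIN340 with THZ531 were not analysed here.

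Of 96427 intervals on main chromosomes, 92910 matched a GENCODE 44 transcript, and intervals with 3.53% of T>C reads did not. Of overlapping intervals in a gene, that with most reads was kept (57437 in all) and these were summed per gene. Tests used edgeR 4.0.16 in R 4.3.3 on all 10 libraries (TMM, filterByExpr, robust quasi-likelihood fit on group means, 5 residual degrees of freedom). The T>C share was tested with T>C reads and other reads as paired columns of each library, by the interaction term. The distal 3′ end test, reads after against before the proximal end with the library as a block, was added after seeing the data. DESeq2 1.42.0 and other alternatives are under the closing section. p-values were adjusted by the Benjamini-Hochberg method over all genes tested. Comparisons with control share the control libraries. The members and lists were chosen with earlier results of these data known. From each list, the 3 genes with the smallest p in nascent RNA among those called against control are named, and for likeness the 3 genes with the highest r (log2 CPM, pseudocount 0.5). Markers are given as levels, and some are not reported here.

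Replicates were not one library deposited again (chi-square per degree of freedom 3.38 to 4.66). A simulation drew all 10 libraries, with changes planted only in the THZ531 group, which was tested against control. A true log2 change of 1 was called in 32% of changed genes in nascent RNA and 57% in total RNA. In the share it was 15% and in the distal test 46%. For a change of 2 these were 78%, 86%, 65% and 85%. The 2 read classes of the share and distal tests were drawn independently, without the pairing within a library.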

Additional observations from a re-analysis of the deposited data

Results flagged for a closer look

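The effects of THZ531 on nascent MYC differed with and without Endovion. The interaction of THZ531 and Endovion was -1.42 on the log2 scale (± 0.32 SE, n = 2 libraries per group, edgeR adjusted p = 0.025): THZ531 added 1.53 ± 0.22 to the control and 0.11 ± 0.22 (95% interval -0.46 to 0.69) to Endovion. The call was lost when any 1 of 5 libraries was left out, control replicate 2, both Endovion libraries, THZ531 replicate 2 and replicate 1 of the combination (adjusted p = 0.064 to 0.34), and the log2 value then lay between -1.14 and -1.55.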

How the results depend on the processing

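Of 25 member calls, 5 held under every alternative run for them: nascent MYC with THZ531 (log2 change 1.29 to 1.74), total MXD1 with Endovion, THZ531 and the combination, and the distal MAX shift with the combination (0.86 to 1.74). Most of these 25 calls were lost without control replicate 2, and few without control replicate 1. No value called in the main or the alternative run reversed its direction. Values called in neither run changed sign 51 times in the T>C share, 39 in nascent RNA, 39 in total RNA and 19 at the distal end. In some setting, 10 results gained a call. A group left with 1 library has a wider error, and that library is assumed to vary like the other groups. Without control replicate 2, most of the lost calls also had smaller changes than with all libraries. Examples are nascent MYC (0.68) and the distal MAX shift (0.55) with SRPIN340, while nascent MNT with THZ531 was larger (1.97). Why calls were lost was not tested. Counts of members called moved by over 1.5 times as follows. With overlapping intervals summed without choosing 1, the nascent counts were 0 with SRPIN340, 0 with Endovion, 1 with THZ531, 0 with the combination and 0 for the interaction, and the total counts 0 with SRPIN340 and 2 with Endovion. With DESeq2 they were 0 in nascent RNA with SRPIN340, and 2 in total RNA with SRPIN340 and 2 with Endovion. Fitting only the 2 groups compared gave 0 in nascent RNA with SRPIN340, and 0, 2 and 3 in total RNA with SRPIN340, Endovion and THZ531. Scaling T>C reads by total reads gave 0 in nascent RNA with SRPIN340. Without the filter on low counts, nascent Endovion gave 2, the combination against THZ531 1, and the interaction 2 over nascent and total RNA, with MXD1 in total RNA added (-1.25, adjusted p = 0.0018). The calls ended by summing overlapping intervals were nascent MYC with SRPIN340, the combination and the interaction (adjusted p = 0.28, 0.076 and 0.41), nascent MNT with THZ531 (0.11), nascent MXD1 with Endovion and the combination (0.10 and 0.058), total MXD1 with SRPIN340 (0.063), and total MAX and MXD3 with THZ531 (0.051 and 0.069). Those ended by fitting only the 2 groups were nascent MYC and total MXD1 with SRPIN340 (0.15 and 0.12), total MAX, MLXIP and MXD3 with THZ531 (0.083, 0.059 and 0.094) and total MXI1 with the combination (0.053). The unfiltered fit ended total MYC with the combination (0.066), and scaling by total reads ended nascent MYC with SRPIN340 (0.074).

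Same-numbered replicates were not paired by any label, and their deviations correlated at -0.141 to 0.138 over 10 pairs of groups. With the replicate number as a block, the counts were 2 for nascent Endovion, 0 for total SRPIN340 (MXD1, adjusted p = 0.067) and 0 for the distal end with SRPIN340 (MAX, 0.053), and no other count of members changed by over 1.5 times.

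Leaving out 1 library at a time gave 0 to 1 calls in nascent RNA with SRPIN340, 0 to 2 with Endovion, 1 to 2 with THZ531 and 0 to 2 with the combination. In total RNA it gave 0 to 1, 1 to 2, 1 to 6 and 1 to 5, in the T>C share 0, 0 to 1, 0 to 1 and 0 to 1, at the distal end 0 to 1, 0 to 1, 0 to 2 and 1 to 3, and for the interaction 0 to 2. The interaction was not run with 2 groups, which cannot give it. Depth limits most the members with under 30 T>C reads in the controls, MXD1, MNT, MXD4 and MLX.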

Other observations

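MGA in nascent RNA was at 9 and 21 T>C reads with THZ531 and Endovion and at 56 and 26 with Endovion, a log2 difference of -1.30 ± 0.48 (edgeR adjusted p = 0.23, n = 2). MXD3 reads in the distal 230 bases of its 3′ UTR were 67.2% and 76.7% with the combination and 83.0% and 92.0% with THZ531, a log2 difference of -1.41 ± 0.48 that was not called (adjusted p = 0.69), from 14 to 104 proximal reads in these 4 libraries. MXD4 had 2.40 conversions per T>C read in control replicate 2 and 2.57 in SRPIN340 replicate 1, and at most 1.43 in the other 8 libraries, from 7 to 30 T>C reads each.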
